A study of Mus musculus with 8 samples.

Results

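Interferon-induced genes and interferon regulatory factors (IRFs) were examined in diabetic mouse kidney after treatment with rFGF4, a modified recombinant human fibroblast growth factor 4, or with vehicle. They were taken by gene symbol from the deposited expression table, as the Ifi genes with a number, the Ifit and Ifitm genes, Ifih1, the Oas family, the Gbp and Irgm GTPases, the Irf genes with a number, Mx1, Mx2 and 10 further named genes (Isg15, Isg20, Usp18, Rsad2, Bst2, Cmpk2, Zbp1, Igtp, Iigp1 and Xaf1). The rule matched 81 of 55401 genes and uses symbols, not measured values. Of these, 59 reached 0.5 FPKM in at least 4 of 8 libraries and were tested, among 15150 genes tested in all. FPKM counts mapped fragments scaled for transcript length and for library size, a level per length, so genes can be set side by side on it.

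Kidney RNA of 8 mice was sequenced, 1 library per mouse. The 4 treated mice are numbered 1, 2, 3 and 5 and carry the label of rFGF4 treatment, and the 4 control mice, here called vehicle mice, are numbered 2, 3, 4 and 5 and carry the label of the db/db model. The series describes both groups as db/db mice, which lack a working leptin receptor on the C57BLKS/J background, whereas the paper's text names mice made diabetic with streptozotocin, and the files do not settle which applies. For both models the paper states male mice, with rFGF4 at 1.0 mg/kg or PBS injected intraperitoneally on alternate days for 8 weeks. The db/db mice were 12 weeks old at the start. No nondiabetic group is part of the series, so the levels below cannot be set against healthy kidney.

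Interferons are secreted alarm proteins that cells release on sensing foreign or misplaced nucleic acid. Type I interferons (the Ifna genes and Ifnb1) act through IFNAR1 and IFNAR2 and activate a complex that contains STAT2 and IRF9 and binds the interferon-stimulated response element (ISRE), switching on antiviral effectors such as the Ifit, Oas and Mx genes and Isg15. Type II interferon (Ifng), made mainly by T and NK cells, acts through IFNGR1 and IFNGR2 on promoters with a gamma-activated site (GAS), and the Gbp and Irgm families of GTPases, which attack vacuoles holding microbes, are its best known targets. IRF1 mediates much of the second response, and IRF7 amplifies the first. The same genes are known to rise in inflamed kidney, in immune cells and in resident cells.

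Before the values, promoter sequence is shown for members from both arms of the response, since the 2 arms behaved differently between mice. RefSeq promoters (GRCm38.p6) were matched for 59 of the 81 members, counting tested and untested ones. In the 250 bases upstream of the start, 30 of these 59 (50.8%) held the core of an ISRE, written as GAAA, any 2 bases, GAAA, on either strand, against 936 of 27025 genes of the promoter reference (3.46%). The GAS letters, TTC, any 3 bases, GAA, which read the same on both strands, were in 13 of 59 (22%) against 2197 of 27025 (8.13%). The ISRE core was found in 8 of 9 GTPases, 8 of 10 genes of the Ifi200 family, 7 of 15 IFIT, MX and other effectors, 4 of 9 nucleic acid sensors and OAS genes, 1 of 8 IRFs, 1 of 7 IFITM genes and the 1 matched gene of the ISG15 system. GAS letters were present in 4 of 9 GTPases and 3 of 8 IRFs, Irf1 among them. The stretches below are upstream sequence, 5′ to 3′ on the gene's strand, with 1 core of each in capitals. The Ifit1, Isg15 and Oas1a stretches hold 2, 3 and 2 matches to it in all, some overlapping, of which 1 each is marked. The Irgm2 stretch lies before the RefSeq start, which differs from the first GENCODE start of that gene:
Igtp (chr11:58199497-58199555, plus strand): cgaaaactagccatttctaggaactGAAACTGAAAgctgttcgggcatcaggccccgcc
Irgm2 (chr11:58214888-58214947, plus strand): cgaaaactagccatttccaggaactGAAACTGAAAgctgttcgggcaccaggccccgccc
Gbp7 (chr3:142530258-142530317, plus strand): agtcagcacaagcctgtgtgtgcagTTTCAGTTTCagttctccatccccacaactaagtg
Ifit1 (chr19:34640779-34640838, plus strand): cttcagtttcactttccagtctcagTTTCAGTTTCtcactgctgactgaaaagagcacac
Ifit3 (chr19:34583382-34583441, plus strand): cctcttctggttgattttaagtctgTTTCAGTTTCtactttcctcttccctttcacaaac
Isg15 (chr4:156200850-156200909, minus strand): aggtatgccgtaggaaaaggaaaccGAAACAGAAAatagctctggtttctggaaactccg
Oas1a (chr5:120907526-120907564, minus strand): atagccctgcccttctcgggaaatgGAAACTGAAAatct
The core stood 34 bases upstream of the Igtp start and 122 bases upstream of the Ifit3 start, so genes of both arms carried it. These are letter matches and say nothing of what bound there in these kidneys.

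No member passed the threshold of the study (unadjusted p under 0.05 and a change of 1.5-fold or more, or 0.67-fold or less), which 232 of the 15150 tested genes did (1.53%). An unadjusted p under 0.05 was reached by 1 member, Oas1c, against 700 genes (4.62%). In no member did the values of the groups separate without overlap, against 504 genes (3.33%). After Benjamini-Hochberg adjustment over all tested genes with limma, no gene was called (0.0%), and the smallest adjusted p was 0.918. The mean was higher with rFGF4 for 35 of 59 members, against 67.1% of all tested genes, and the median log2 fold change of the members was 0.09, as was that of all tested genes. That count of 35 was 14 without rFGF4 mouse 2, 21 without vehicle mouse 2, 20 without vehicle mouse 4 and 30 to 47 without any other single mouse. The members' median went from -0.24 without rFGF4 mouse 2 to 0.36 without vehicle mouse 5, and was -0.21 with the replicate number as a block. No other mouse shares the number of rFGF4 mouse 1 or vehicle mouse 4, so the block fit compares only mice 2, 3 and 5. With array weights the members' median was 0.51 and 52 of 59 members were higher, against a median of 0.10 over all tested genes. After median ratio scaling of the libraries, 28 of 59 members and 7208 of 15150 genes were higher. Individual log2 fold changes, on log2(FPKM + 1), lay between -1.04 (Gbp6) and 0.90 (Oasl1).

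The members varied widely between mice. The standard error of the log2 fold change had a median of 0.62 over the members and 0.19 over all tested genes. Within a group, the SD on the log2 scale had a median of 1.01 for members and 0.27 for all genes, and the highest mouse exceeded the lowest by a median of 15.5 times against 2.21 times. The p-values weigh the group difference against the spread between these mice, with each gene's variance moderated by the trend over all tested genes. They account for no other source of variation.

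The same 4 mice carried the high values in most of the members, and they came from both groups. For 47 of 59 members (79.7%) the 4 highest libraries were rFGF4 mice 1 and 2 and vehicle mice 3 and 5, a set that was also highest for 2643 of 15150 genes (17.4%). In rFGF4 mice 3 and 5 and vehicle mice 2 and 4 the median member stood at 0.526, 0.552, 0.488 and 0.574 times its own median over the 8 mice. In rFGF4 mice 1 and 2 it stood at 1.53 and 3.81 times, and in vehicle mice 3 and 5 at 1.37 and 2.31 times. Over all tested genes the same measure lay between 0.930 and 1.3. For 49 tested genes of a further list of 51 interferon-induced genes, 3 of which are IFITM members, the measure was high in the same 4 mice, at 1.58, 2.37, 0.584 and 0.570 times with rFGF4 and 0.525, 1.55, 0.502 and 2.29 times with vehicle, so it was not particular to the members.

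**Figure D1:**
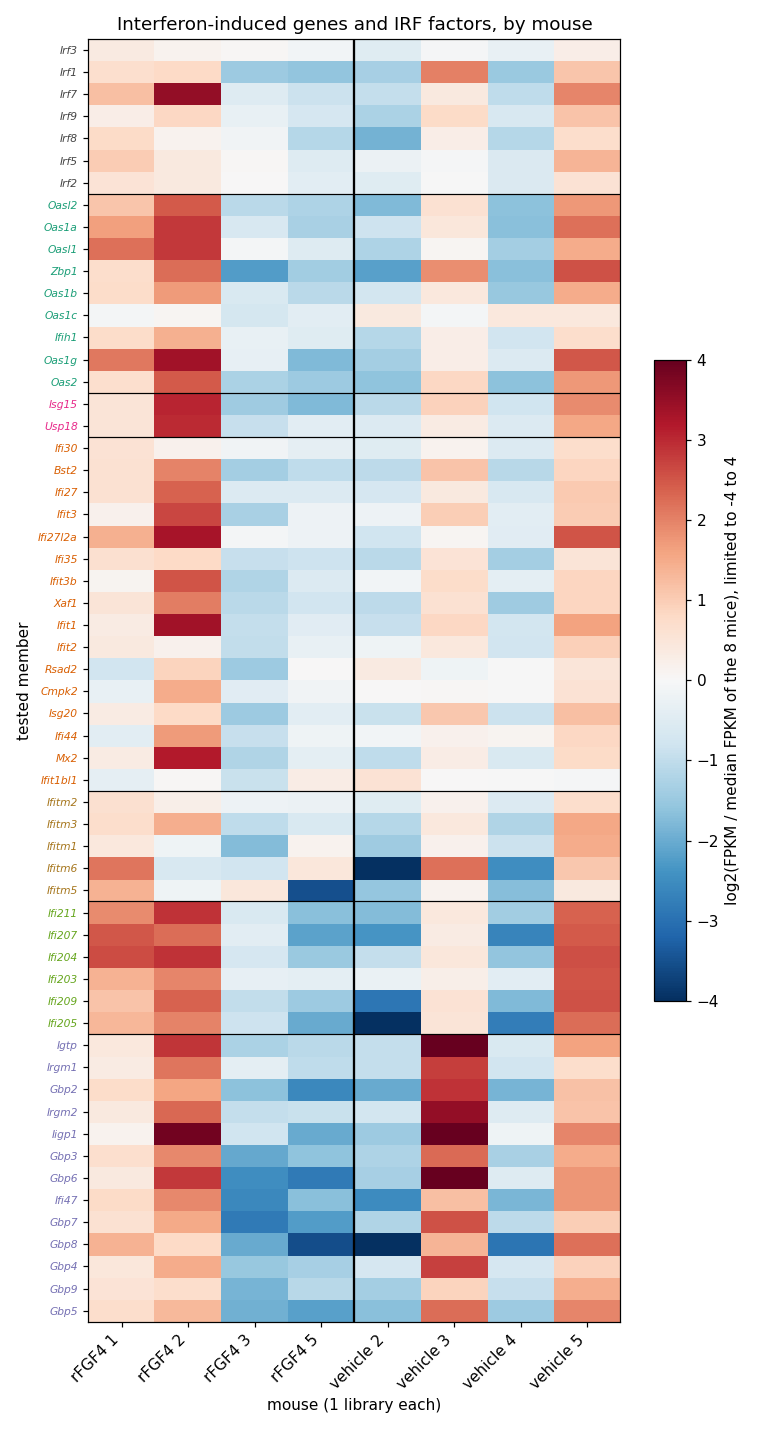
Heat map of the tested members described here (rows, grouped by role and coloured by it) in the 8 mice (columns, rFGF4 left and vehicle right of the black line), as log2 of FPKM over the member's median in the 8 mice. Red columns stand in both groups: rFGF4 mouse 2 is reddest for the effectors, the ISG15 system and the OAS genes, and vehicle mouse 3 for the GTPases at the bottom.

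The high mice did not share a common profile. rFGF4 mouse 2 held the highest value of 25 members, which was 42.4% of them, and of 7.32% of all tested genes. These were 12 of 16 IFIT, MX and other effectors, both genes of the ISG15 system, 7 of 9 sensors and OAS genes, Irf7, 2 Ifi200 genes and Ifi47. Vehicle mouse 3 held the highest value of 12 members, against 6.89% of all genes, and these were 10 of 13 GTPases, Irf1 and Ifitm6. Vehicle mouse 5 was highest for 15 members and rFGF4 mouse 1 for 5, although rFGF4 mouse 1 was highest for 48.1% of all tested genes. After median ratio scaling, rFGF4 mouse 2 was still highest for 25, vehicle mouse 3 for 13 and vehicle mouse 5 for 16 members. Scaled in this way, rFGF4 mouse 1 was highest for 1 member and for 20.2% of all tested genes.

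Among the GTPases, Igtp (Irgm3), an immunity-related GTPase, had the highest mean over the 8 mice. It was 14.6, 78.4, 4.59 and 5.19 FPKM in rFGF4 mice 1, 2, 3 and 5, and 5.69, 325, 7.21 and 33.6 FPKM in vehicle mice 2, 3, 4 and 5. Vehicle mouse 3 exceeded the next mouse 4.14 times, and the groups overlapped. The mean was 25.7 ± 35.4 FPKM with rFGF4 and 92.8 ± 155 FPKM with vehicle (SD, n = 4 each), with a log2 fold change of -0.96 ± 1.33 (SE). Its exons overlap those of Irgm2 on chromosome 11, so some fragments could have been given to either gene. Of the 50-base words of Igtp, 11.8% recur in other genes, most often in Irgm2.

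Irgm1, a relative of Igtp that restrains the other family members, had the second highest mean, and exceeded Igtp in rFGF4 mice 1, 3 and 5 and vehicle mouse 2. Its FPKM was 14.8, 51.9, 9.01 and 5.92 with rFGF4 and 6.16, 80.9, 6.93 and 19.5 with vehicle, in the same order of mice. Again rFGF4 mouse 2 and vehicle mouse 3 stood above the other 6, and the log2 fold change of -0.18 was small beside its SE of 0.88. The next genes were chosen after their values were seen. Iigp1 (Irga6), which disrupts the vacuole of intracellular parasites, was 1.62, 21.3, 0.839 and 0.363 FPKM with rFGF4 and 0.535, 76.3, 1.31 and 5.70 FPKM with vehicle. Gbp2, a guanylate-binding protein, was 19.4, 34.5, 3.71 and 1.92 FPKM against 2.85, 85.4, 3.21 and 26.1 FPKM. Gbp6 was 2.01, 10.9, 0.274 and 0.216 FPKM against 0.620, 46.4, 1.07 and 5.26 FPKM, and its neighbour Gbp10, which was not tested, reached 29.1 FPKM in vehicle mouse 3. In these genes vehicle mouse 3 was first and rFGF4 mouse 2 second. Of the 50-base words of Gbp10, 84.1% recur in other genes, most often in Gbp6, so how reads were split among them is uncertain.

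All 13 tested GTPases had a lower mean with rFGF4 (median log2 fold change -0.47), and none passed an unadjusted p under 0.05. Leaving out vehicle mouse 3 turned the direction, since then 10 of 13 were higher with rFGF4 and the median was 0.12. Leaving out rFGF4 mouse 3 or 5 left 9 lower and leaving out vehicle mouse 5 left 10 lower. Weighting the libraries by their estimated quality also put 10 of 13 higher. Leaving out rFGF4 mouse 2 as well brought the count back to 13 of 13 lower, with a median of -0.34, so the direction depended on which of the high mice were included.

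The IFIT, MX and other effectors behaved otherwise. By mean level the leading pair were Ifi30 (GILT), a lysosomal thiol reductase of antigen presentation, and Bst2 (tetherin), which holds budding virus on the cell. Ifi30 was narrow, at 113, 85.2, 68.7 and 59.7 FPKM with rFGF4 and 54.8, 83.2, 51.4 and 124 FPKM with vehicle. Bst2 was 41.6, 109, 10.7 and 13.5 FPKM against 13.3, 60.6, 12.9 and 50.2 FPKM, so rFGF4 mice 1 and 2 and vehicle mice 3 and 5 were well above the other 4. Log2 fold changes were 0.11 ± 0.31 and 0.09 ± 0.81 (SE), and both turned negative without rFGF4 mouse 1, without vehicle mouse 2 or 4, and under median ratio scaling.

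Several effectors, chosen after their values were seen, were raised in rFGF4 mouse 2 far above the rest. Ifit3, an RNA-binding antiviral protein, was 20.7, 116, 7.51 and 16.1 FPKM with rFGF4 and 16.1, 36.8, 13.9 and 36.9 FPKM with vehicle. Ifit1, which binds viral RNA lacking cap methylation, was 2.54, 20.4, 1.04 and 1.48 FPKM against 1.06, 3.58, 1.22 and 6.09 FPKM. Mx2, a dynamin-like GTPase, was 0.819, 5.85, 0.286 and 0.502 FPKM against 0.322, 0.805, 0.431 and 1.1 FPKM. rFGF4 mouse 2 exceeded the second mouse 3.15, 3.36 and 5.30 times in these genes, and the other 7 mice overlapped between the groups. Not all effectors followed: Ifit2 was highest in vehicle mouse 5 at 7.55 FPKM and stood at 4.34 FPKM in rFGF4 mouse 2, so that the Ifit1 to Ifit2 ratio was 4.71 in that mouse and 0.310 to 0.806 in the others. Of the 50-base words of Ifit3, 51.2% recur in other genes, most often in its copy Ifit3b. The printed Ifit3 stretch occurs unchanged upstream of Ifit3b.

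Over the 16 tested effectors 11 were higher with rFGF4 and 5 lower (median log2 fold change 0.05), and none passed an unadjusted p under 0.05. Without rFGF4 mouse 2 the count was 2 higher and 14 lower, without vehicle mouse 2 or 4 it was 5 higher and 11 lower, and after median ratio scaling it was 6 higher and 10 lower. Rsad2 (viperin), an antiviral enzyme, passed the study's threshold as lower with rFGF4 once rFGF4 mouse 2 was left out, as 188 of 15150 genes did then. With all mice its values were 2.15, 6.74, 1.33 and 3.66 FPKM with rFGF4 and 4.64, 3.21, 3.64 and 5.06 FPKM with vehicle.

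The ISG15 system had its highest values in the same mouse as the effectors. Isg15, a ubiquitin-like modifier, was 8.76, 50.4, 2.27 and 1.80 FPKM with rFGF4 and 2.89, 11.6, 3.53 and 23.0 FPKM with vehicle. Usp18, which removes ISG15 from proteins and damps IFNAR signalling, was 1.56, 8.45, 0.569 and 0.807 FPKM against 0.742, 1.35, 0.747 and 3.17 FPKM. In both, rFGF4 mouse 2 was first and vehicle mouse 5 second. Log2 fold changes were -0.05 ± 0.98 for Isg15 and 0.30 ± 0.57 for Usp18 (SE). Without rFGF4 mouse 2 both were lower with rFGF4.

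The balance between the arms was unlike the others in vehicle mouse 3. Its Igtp to Ifit3 ratio was 8.82, against 0.323 to 0.911 in the other 7 mice, and its Iigp1 to Isg15 ratio was 6.60, against 0.185 to 0.424. The Gbp2 to Ifit3 ratio separated it less, at 2.32 against 0.119 to 0.936. The ratio of Irf1 to Irf7 was 12.3 in vehicle mouse 3, 0.584 in rFGF4 mouse 2 and 2.06 to 2.99 in the remaining 6 mice. These ratios were chosen after the values were seen and are given without a test.

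**Figure D2:**
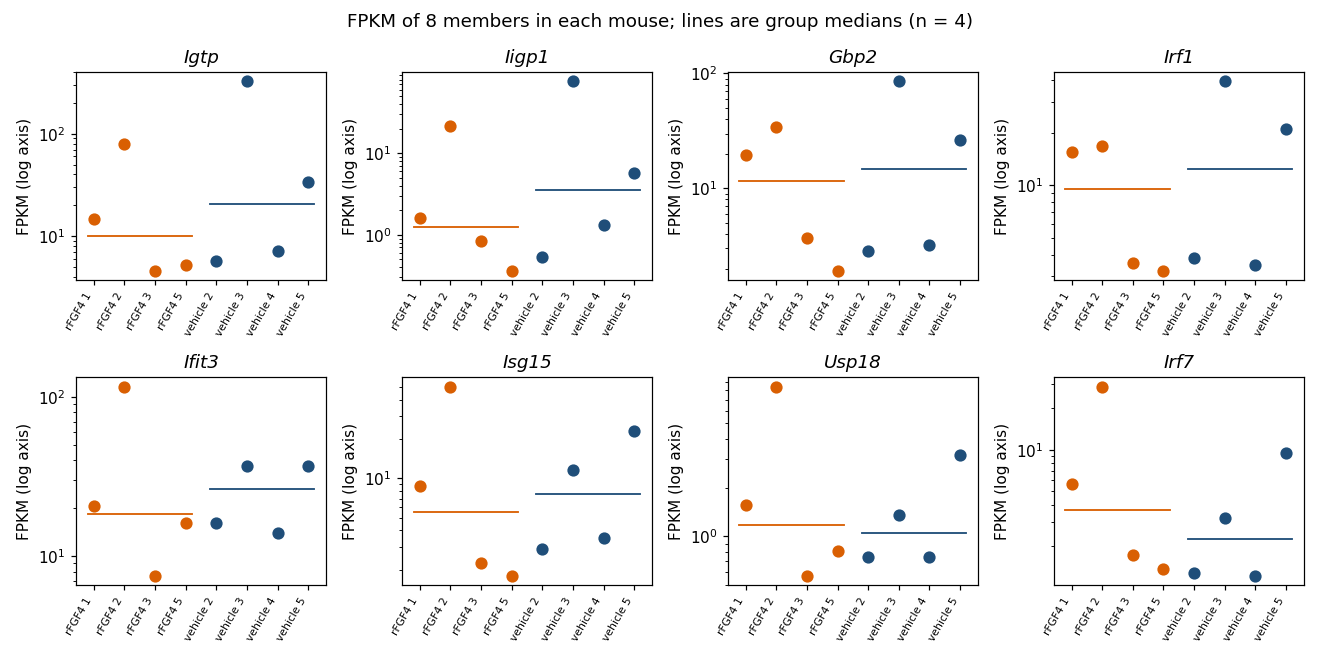
FPKM (log axis) of 8 members in each mouse, rFGF4 in orange and vehicle in blue, with a line at each group's median (n = 4). In the upper row Igtp, Iigp1, Gbp2 and Irf1 peak in vehicle mouse 3, and in the lower row Ifit3, Isg15, Usp18 and Irf7 peak in rFGF4 mouse 2.

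Irf1 and Irf7 peaked in different mice. Irf1, an early target of type II interferon, was 15.6, 16.7, 3.57 and 3.23 FPKM with rFGF4 and 3.84, 39.4, 3.48 and 20.9 FPKM with vehicle. Irf7, the amplifier of type I interferon, was 5.63, 28.6, 1.74 and 1.36 FPKM against 1.28, 3.21, 1.22 and 9.54 FPKM. Both were above the 4 low mice in rFGF4 mice 1 and 2 and vehicle mice 3 and 5, but Irf1 peaked in vehicle mouse 3 and Irf7 in rFGF4 mouse 2. The log2 fold changes were -0.44 ± 0.83 and 0.62 ± 0.85 (SE). Irf1 was higher with rFGF4 without vehicle mouse 3, by 0.15 on the log2 scale, and Irf7 was lower without rFGF4 mouse 2, by -0.15. Irf9, the DNA-binding part of the complex activated by type I interferon, was 5.30, 7.85, 3.60 and 2.82 FPKM with rFGF4 and 1.87, 7.57, 2.87 and 9.77 FPKM with vehicle, high in the same 4 mice as the rest.

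Irf3 and Irf2 varied less. Irf3, the constitutive factor activated by nucleic acid sensing, was 17.6, 15.1, 14.0 and 12.8 FPKM with rFGF4 and 9.83, 13.2, 11.1 and 16.2 FPKM with vehicle. Irf2, which competes with IRF1 for its sites, was 4.91, 4.42, 3.39 and 2.52 FPKM against 2.37, 3.30, 2.24 and 5.0 FPKM. The log2 fold changes of Irf3 and Irf2 were 0.24 ± 0.17 and 0.20 ± 0.25 (SE), and neither was called. With array weights Irf3 passed an unadjusted p under 0.05 (log2 fold change 0.32), as did 1817 of 15150 genes. Irf8, which directs macrophage and dendritic cell development, was 7.73, 5.04, 4.10 and 2.09 FPKM against 1.23, 5.54, 2.07 and 7.48 FPKM. Irf5, a factor of inflammatory macrophages, was 6.05, 3.93, 3.13 and 2.08 FPKM against 2.55, 2.88, 2.0 and 7.65 FPKM. The log2 fold changes of Irf8 and Irf5 were 0.28 ± 0.48 and 0.08 ± 0.37 (SE). Of the 8 tested IRFs, 6 were higher and 2 lower with rFGF4, and leaving out a single mouse moved this between 4 higher (without vehicle mouse 2) and 8 higher (without vehicle mouse 3). With the replicate block 3 were higher and 5 lower (median log2 fold change -0.073). Irf4, known from plasma cells and activated lymphocytes, did not pass the filter and was highest in vehicle mouse 5 at 4.63 FPKM. Exons of Irf1, Irf3, Irf5, Irf7 and Irf9 overlap those of another annotated gene, and the strand setting of the counting was not given in the sources used here.

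The sensors were Ifih1 (MDA5), a helicase that detects double-stranded RNA, and Zbp1, which detects Z-form nucleic acid. The OAS genes make the 2-5A messenger that activates RNase L, or resemble those that do, and of this group Oasl2 and Oas1a were the most abundant. Oasl2 was 6.61, 16.8, 1.44 and 1.3 FPKM with rFGF4 and 0.893, 4.67, 0.979 and 10.1 FPKM with vehicle. Oas1a was 6.83, 15.6, 1.42 and 0.900 FPKM against 1.25, 3.0, 0.690 and 10.1 FPKM. Both were highest in rFGF4 mouse 2, then vehicle mouse 5, then rFGF4 mouse 1. Of the 50-base words of Oas1a, 57.6% recur in other genes, most often in Oas1g, so how reads were split among them is uncertain. Over the 9 tested genes, 7 were higher and 2 lower with rFGF4 (median log2 fold change 0.37), and without rFGF4 mouse 2 the count was 2 higher and 7 lower. With the replicate block it was 3 higher and 6 lower (median log2 fold change -0.12).

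Oas1c was the exception to the pattern and the 1 member with an unadjusted p under 0.05. It was 2.15, 2.38, 1.40 and 1.69 FPKM with rFGF4 and 2.97, 2.16, 3.06 and 3.03 FPKM with vehicle, so 3 of 4 vehicle mice lay above all 4 rFGF4 mice. The means were 1.91 ± 0.443 and 2.80 ± 0.430 FPKM (SD, n = 4 each), and the log2 fold change was -0.39 ± 0.15 (SE). The limma p was 0.0337 before adjustment and 0.918 after it. A two-sided exact permutation test over the 70 splits of the mice gave p = 0.0571, where the smallest possible is 0.0286. The call was lost when rFGF4 mouse 3 or 5 or vehicle mouse 2, 4 or 5 was left out, although the log2 fold change stayed between -0.31 and -0.37. Equal sum scaling and the replicate block also ended the call. Unlike the other tested OAS genes, Oas1c was not raised in rFGF4 mouse 2.

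The IFITM genes, which encode small membrane proteins that block viral entry, included the members with the highest mean levels. Ifitm2 was 233, 176, 131 and 127 FPKM with rFGF4 and 107, 168, 102 and 243 FPKM with vehicle. Ifitm3 was 142, 240, 42.9 and 57.7 FPKM against 39.8, 117, 37.9 and 255 FPKM. Ifitm2 overlaps an exon of Gm45717, and 48.5% of its 50-base words recur in other genes, most often in Gm45717, so its level is uncertain. In both, the 4 high mice stood above the 4 low ones, with log2 fold changes of 0.15 ± 0.32 and 0.22 ± 0.74 (SE). Of the 5 tested IFITM genes 4 were higher with rFGF4, and 1 of 5 without vehicle mouse 4 and 2 of 5 without rFGF4 mouse 1 or vehicle mouse 2. With the replicate block 0 of 5 were higher (median log2 fold change -0.33).

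The Ifi200 family on chromosome 1 holds DNA-binding proteins of the HIN type. Ifi211 was 6.63, 13.3, 1.18 and 0.559 FPKM with rFGF4 and 0.538, 2.39, 0.683 and 9.11 FPKM with vehicle, and Ifi207 was 9.40, 7.90, 1.27 and 0.379 FPKM against 0.331, 2.10, 0.271 and 9.26 FPKM. In both, rFGF4 mice 1 and 2 and vehicle mouse 5 were highest, and vehicle mouse 3 lay between them and the other 4 mice. All 6 tested Ifi200 genes were higher with rFGF4 (median log2 fold change 0.34), which fell to 2 of 6 without rFGF4 mouse 2 and 3 of 6 without vehicle mouse 2 or 4. With the replicate number as a block, a comparison of mice 2, 3 and 5 only, 0 of 6 were higher (median log2 fold change -0.17). Of the 50-base words of Ifi211, 72.8% recur in other genes, most often in Ifi205 of the same family.

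**Figure D3:**
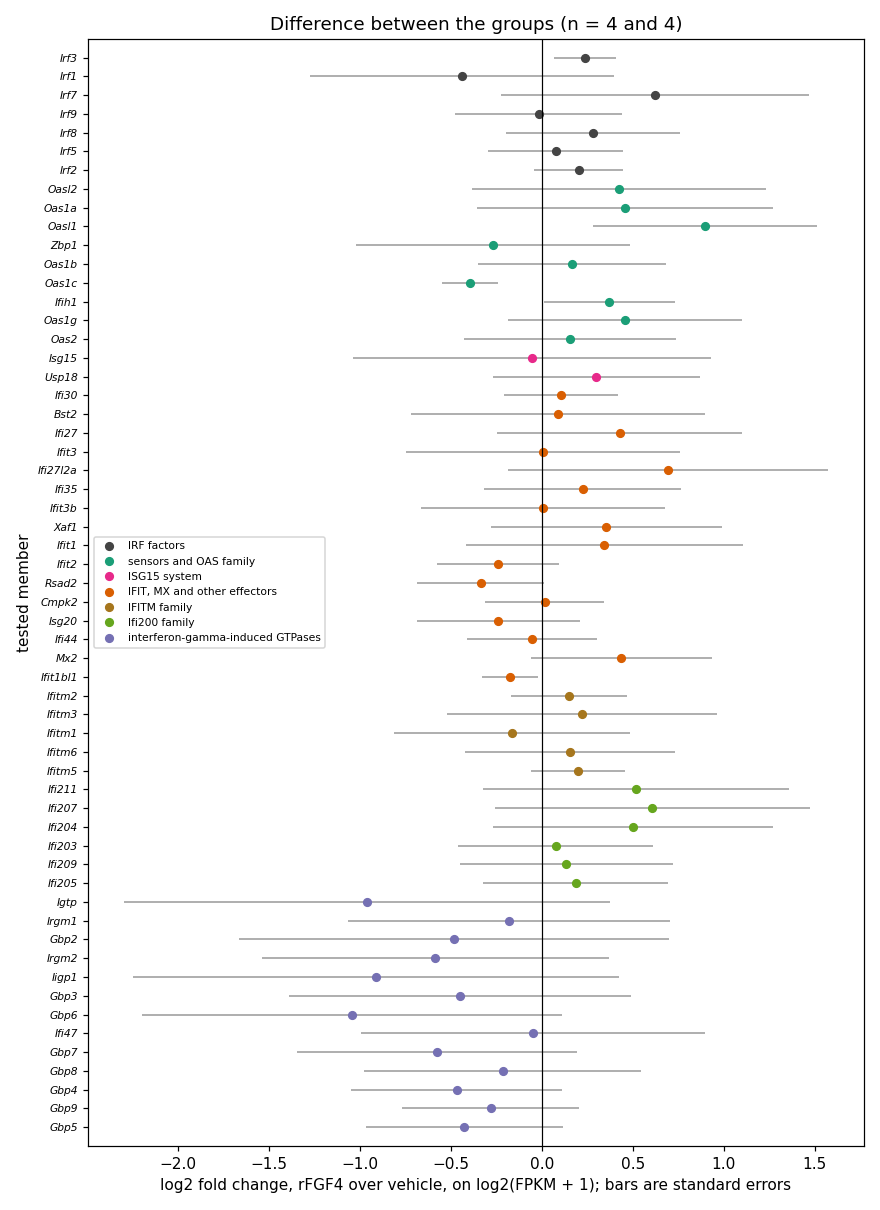
Log2 fold change of the tested members described here (dot, coloured by role; rFGF4 over vehicle, on log2(FPKM + 1)) with its standard error (bar), n = 4 mice per group. The 13 GTPases at the bottom lie left of 0, where 3 of them stayed without vehicle mouse 3, and the 6 Ifi200 genes lie right of it, where 2 stayed without rFGF4 mouse 2. Oas1c is the only member at an unadjusted p under 0.05.

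The 22 members that were not tested were low throughout or in most mice. Ifi44l, Oas1d, Oas1e and Gbp2-ps were listed at the floor of the table in every library. Of the others, Gbp10 and Irf4 reached the values given above, Mx1 reached 2.49 FPKM in rFGF4 mouse 2, and the remaining 15 stayed at or below 2.20 FPKM in every mouse.

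Upstream of the members, the interferon genes themselves were at or near the floor. None of 21 ligand genes passed the filter, and their summed level was 0.0529 to 0.441 FPKM per mouse. Ifng was 0.230 and 0.0377 FPKM in rFGF4 mice 1 and 2 and at the floor in mice 3 and 5. In vehicle mice 3, 4 and 5 it was 0.0666, 0.0292 and 0.422 FPKM, and it was at the floor in mouse 2. These levels are below the filter, and with no counts deposited their order was not tested. All 6 receptor genes were tested and had a higher mean with rFGF4, none at an unadjusted p under 0.05, and this rested on rFGF4 mouse 1: without it 2 of 6 were higher, as they were with the replicate block. Of the 11 receptor kinases, STATs and their inhibitors 7 were higher and 4 lower, none below an unadjusted p of 0.05, and 4 were higher without rFGF4 mouse 1 and 3 with the block. Of 17 sensing genes 13 were tested, 10 higher and 3 lower (6 higher with the block). Mavs, the mitochondrial adaptor of RNA sensing, passed an unadjusted p under 0.05 (log2 fold change 0.31 ± 0.11, SE, limma adjusted p 0.918), as did 4.62% of all tested genes. No sensing gene passed it with median ratio scaling or the block, or without rFGF4 mouse 3, vehicle mouse 3 or vehicle mouse 5. Of the 51 further interferon-induced genes 49 were tested, with 31 higher and 18 lower and none at an unadjusted p under 0.05. The number higher among these 49 ranged from 8 (without rFGF4 mouse 2) to 43 (without vehicle mouse 5) when single mice were left out. It was 16 without rFGF4 mouse 1, 13 without vehicle mouse 2, 11 without vehicle mouse 4, 16 with median ratio scaling and 6 with the replicate block.

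Markers of several immune cell types were also high in some or all of these mice. The 10 macrophage markers, all tested, summed to 573, 242, 77.7 and 47.7 FPKM with rFGF4 and 31.8, 146, 35.5 and 592 FPKM with vehicle, so the 4 mice high for the members were also the 4 highest here. Macrophage markers were highest in vehicle mouse 5 and rFGF4 mouse 1, while by number of highest values the members were led by rFGF4 mouse 2, then vehicle mouse 5 and vehicle mouse 3. The 8 T cell markers summed to 19.5, 10.1, 2.19 and 4.63 FPKM against 3.68, 3.07, 2.81 and 48.1 FPKM, the 6 neutrophil markers to 242, 43.2, 23.2 and 81.0 FPKM against 3.36, 392, 58.3 and 189 FPKM, and the 9 B and plasma cell markers to 2816, 712, 81.2 and 651 FPKM against 64.1, 1462, 27.5 and 23890 FPKM. Among these lists, T cell markers were not raised in vehicle mouse 3 and neutrophil markers were not raised in rFGF4 mouse 2. The 7 NK cell markers summed to 4.45, 8.22, 0.429 and 1.19 FPKM against 0.369, 1.84, 0.83 and 10.1 FPKM, highest in the same 4 mice as the members, and Ncr1, Klrb1c and Prf1 were below 0.5 FPKM in every mouse. The 7 dendritic cell markers summed to 12.4, 6.94, 2.58 and 2.18 FPKM against 1.29, 2.33, 1.73 and 16.3 FPKM. The 9 lymph node stroma and follicle markers summed to 19.1, 13.7, 7.59 and 6.13 FPKM against 4.20, 15.4, 3.82 and 88.2 FPKM. The 10 proximal tubule markers, the main parenchyma of kidney, summed to 1461, 3740, 7166 and 7331 FPKM against 9266, 4456, 8201 and 4370 FPKM, lowest in the same 4 mice. The share of FPKM in mitochondrial transcripts was 19.0%, 24.7%, 29.8% and 36.0% with rFGF4 and 38.4%, 34.2%, 37.2% and 24.4% with vehicle, so 3 of the 4 high mice had the lowest shares. Genes at 0.5 FPKM or more numbered 16157, 15240, 14951 and 16226 in rFGF4 mice 1 and 2 and vehicle mice 3 and 5, and 14253 to 14616 in the other mice, and rFGF4 mouse 1 had the largest median ratio factor, 1.3. The part of these differences in the members' levels was not tested. In whole kidney, more cells of a type and more RNA per cell cannot be told apart.

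**Figure D4:**
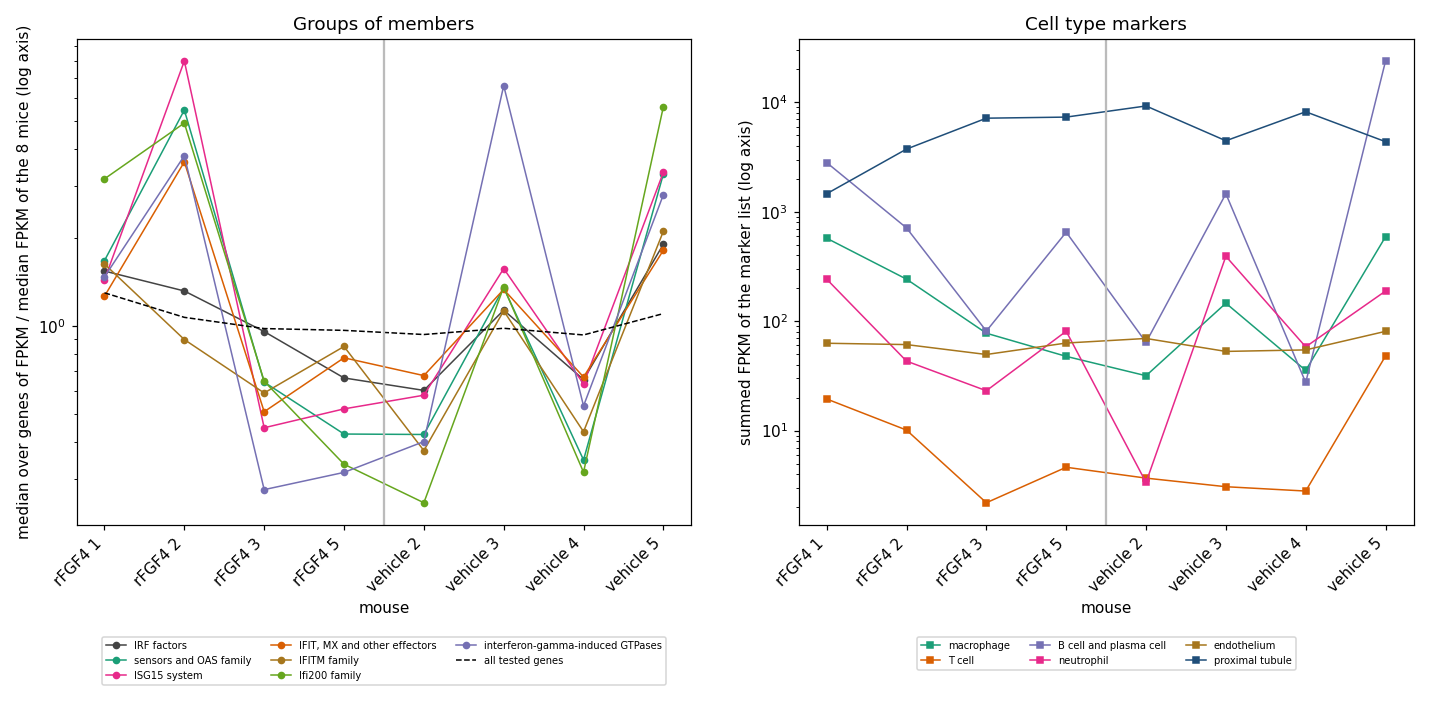
Left, the median over the tested members of each role of FPKM relative to the member's median in the 8 mice (log axis), with all tested genes as a dashed line. Right, summed FPKM of 6 marker lists (log axis). Lines join the points of a list for reading only. The GTPases peak in vehicle mouse 3 and the ISG15 system in rFGF4 mouse 2, and macrophage markers are highest in rFGF4 mouse 1 and vehicle mouse 5.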

How the data were processed

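Poly(A) RNA of 8 mouse kidneys was sequenced as paired ends. Per the labels, HISAT2 2.0, Bowtie 0.12.2, StringTie 1.3.0 and the build mm8 were used, with no role given. The methods name StringTie assembly and merging with gffcompare, and the FPKM values were deposited by the authors for 55401 genes, with 0.0001 in place of 0. No counts were given, so depth and counting error are unknown. Columns of the authors' own comparison (fold change, p and q values) were not used. Identifiers matched GENCODE M21 (GRCm38) for 99.5%.

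Members and lists were chosen with earlier results of these data known. Genes with at least 0.5 FPKM in 4 libraries were compared as log2(FPKM + 1) using limma 3.58.1 (R 4.3.3) with a variance trend and Benjamini-Hochberg adjustment over 15150 genes. The script was tested on simulated data. Results of 2 genes are not reported here. Named with every mouse's value were otherwise the tested IRFs, members at an unadjusted p under 0.05 or with groups that did not overlap, and the 2 most abundant tested members of each role. Alternatives were a pseudocount of 0.1, no filter or a filter of 1 FPKM, median ratio and equal sum scaling, a replicate block, array weights, and leaving out each mouse. The block fit takes its group difference from mice 2, 3 and 5 only, since numbers 1 and 4 occur in 1 group each. Leaving out rFGF4 mouse 2 and vehicle mouse 3 together was chosen after seeing the data. Same-numbered mice did not deviate together (r = -0.229, -0.155 and -0.393), and no source says that the numbers pair them.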

Additional observations from a re-analysis of the deposited data

Results flagged for a closer look

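The level of Oas1c, a member of the oligoadenylate synthetase family, in vehicle mouse 3 stood apart from the other 3 vehicle mice. It was 2.16 FPKM there against 2.97, 3.06 and 3.03 FPKM, and its gap to the nearest of them took up 0.91 of the group's range on the log2(FPKM + 1) scale, above Dixon's 95% critical value for 4 samples. Over 42 groups of 4 mice examined, chance would give about 2.1 such cases, and 1 was found. In the same mouse 10 of 13 GTPases were at their highest.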

How the results depend on the processing

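Values of this paragraph are log2 fold changes unless called counts. No member passed the study's threshold under the other settings, except 1 (Rsad2) without rFGF4 mouse 2, alone or together with vehicle mouse 3, so leaving out single mice gave 0 to 1. Members at an unadjusted p under 0.05 numbered 2 with no filter, 0 with equal sum scaling and 0 with the replicate block (which both ended the Oas1c call), 2 with array weights (Oas1c and Irf3), 2 without rFGF4 mouse 2 and vehicle mouse 3 together, and 0 to 2 when single mice were left out. All tested genes at that p numbered 1233 of 30244 with no filter. Of 15150 genes they numbered 1129 with equal sum scaling, 394 with the block, 1817 with array weights and 277 without those mice together. When single mice were left out they numbered 431 (without rFGF4 mouse 2) to 1430 (without rFGF4 mouse 5). Genes past the threshold numbered 496 with array weights and 164 without rFGF4 mouse 2 and vehicle mouse 3 together. They numbered 188 to 580 when single mice were left out (188 without rFGF4 mouse 2, 580 without rFGF4 mouse 5 and 434 without vehicle mouse 5). Directions of uncalled members turned as follows. Median ratio scaling gave Bst2 -0.038, Ifi30 -0.021 and Irf5 -0.024. The replicate block gave Bst2 -0.42, Ifi207 -0.20, Ifi211 -0.038, Ifi30 -0.23, Ifitm2 -0.19, Ifitm3 -0.33, Irf2 -0.019, Irf5 -0.31, Irf8 -0.13, Oas1a -0.13 and Oasl2 -0.083, with 13 of 59 members and 0 of 6 Ifi200 genes higher (Ifi200 median -0.17). Without rFGF4 mouse 2 and vehicle mouse 3 together, Bst2 was -0.16, Ifi211 -0.0033, Ifitm3 -0.048, Irf5 -0.013, Irf7 -0.11, Oas1a -0.076 and Usp18 -0.27. Array weights gave Igtp 0.20, Irf1 0.18, Irf9 0.46, Irgm1 0.65 and Isg15 0.91. Irf9 was 0.017 with a pseudocount of 0.1 and 0.069 with equal sum scaling, where Isg15 was 0.036. When single mice were left out, the ranges were Bst2 -0.54 to 0.54, Ifi211 -0.051 to 1.09, Ifi30 -0.063 to 0.36, Ifitm2 -0.026 to 0.39, Ifitm3 -0.22 to 0.76, Igtp -1.78 to 0.22, Irf1 -0.90 to 0.15, Irf5 -0.13 to 0.41, Irf7 -0.15 to 1.1, Irf8 -0.046 to 0.60, Irf9 -0.34 to 0.29, Irgm1 -0.77 to 0.56, Isg15 -0.93 to 0.47, Oas1a -0.13 to 1.0, Oasl2 -0.16 to 0.92 and Usp18 -0.27 to 0.59. The cause of these changes was not tested. Depth is unknown, so counting error could not be assessed.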
